A study of Mus musculus with 12 samples.

Results

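Toll-like receptors and their closest partners were followed here as 10 genes, Tlr1, Tlr2, Tlr3, Tlr4, Tlr6, Tlr7, Tlr8, Tlr9, the adaptor Myd88 and the co-receptor Cd14, chosen by symbol from the 32544 genes of the count table. All 10 were among the 14285 genes that were tested. Bulk RNA had been sequenced from 4 groups of 3 libraries. Bone marrow-derived macrophages (BMDMs) came from PHD2cko mice, which carry a conditional knockout of Egln1 driven by the myeloid LysMCre, and from LysMCre controls called WT. They had been differentiated for 7 days with 15% L929-conditioned medium and were lysed 24 h after seeding. The remaining 6 libraries came from 3T3 fibroblasts, an established mouse line without any of these alleles, kept for 72 h in medium that WT or PHD2cko BMDMs had conditioned for 24 h. That medium also held 15% L929-conditioned medium, and the fibroblasts had been starved of serum before. LysMCre is also active in neutrophils, the oxygen condition of the sequenced cultures and the age of the mice were not given in the sources used here, and nothing says that the 3 libraries of a group came from separate mice or cultures, so p-values measure the spread between these libraries, which may be technical.

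Library totals ran from 15516465 to 25199770 counts, and the 50 most abundant genes took 16.7 to 21.3% of a library. Levels are given as counts per 1000000 of the TMM-scaled library size (CPM), on which 3 counts were at most 0.205 CPM. Egln1, the gene that encodes PHD2, went against the label: it had 55.3 ± 0.574 CPM in WT BMDMs but 69.5 ± 1.77 CPM under the PHD2cko label (SD, n = 3), higher by 0.33 on the log2 scale (SE 0.0527, adjusted p = 0.00203, edgeR quasi-likelihood test). The counts are per gene and do not show the deleted exons separately, and every direction below is that of the label. The labelled cell types held: 20 macrophage markers summed to between 32452 and 39025 CPM in the BMDM libraries and 14 fibroblast markers to at most 16.0 CPM there, against 23597 to 31998 CPM in the fibroblasts. In bulk RNA, fewer cells of a type and less RNA per cell cannot be told apart.

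Toll-like receptors are transmembrane receptors that bind conserved microbial molecules and signal through a cytosolic TIR domain. Tlr1, Tlr2, Tlr4 and Tlr6 act at the cell surface: TLR2 pairs with TLR1 to sense triacylated lipopeptides and with TLR6 to sense diacylated ones, and TLR4 senses lipopolysaccharide that CD14 delivers. Tlr3, Tlr7, Tlr8 and Tlr9 act in endosomes on nucleic acids, TLR3 on double-stranded RNA, TLR7 and TLR8 on single-stranded RNA or its breakdown products and TLR9 on CpG DNA. MyD88 is the adaptor of all of these except TLR3, which uses TRIF. In macrophages these receptors lead to NFκB and interferon regulatory factors, and PHD2 is the enzyme that marks hypoxia-inducible factors for destruction when oxygen is present.

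The promoters of the 4 receptors whose levels differed between the BMDM labels, Tlr1, Tlr2, Tlr6 and Tlr9, are shown because these are the genes on which the macrophage comparison turned. Each runs from 250 bases before to 50 bases after a RefSeq start on GRCm38.p6, 5′ to 3′ on the gene's strand. Such windows were read for 7 of the 10 members, not for Tlr4, Tlr7 and Cd14. Capitals mark ACGTG and GCGTG, the cores bound by hypoxia-inducible factors, and GGAAGT, a core of ETS factors such as PU.1, on either strand.
Tlr1, upstream start, chr5:64933509-64933808, minus strand: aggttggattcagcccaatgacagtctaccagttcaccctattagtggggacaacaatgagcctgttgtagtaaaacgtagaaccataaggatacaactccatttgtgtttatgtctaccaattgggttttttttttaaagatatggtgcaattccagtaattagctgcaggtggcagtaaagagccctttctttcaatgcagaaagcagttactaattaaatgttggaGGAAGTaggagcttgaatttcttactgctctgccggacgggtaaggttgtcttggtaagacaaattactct
Tlr1, downstream start, chr5:64932650-64932949, minus strand: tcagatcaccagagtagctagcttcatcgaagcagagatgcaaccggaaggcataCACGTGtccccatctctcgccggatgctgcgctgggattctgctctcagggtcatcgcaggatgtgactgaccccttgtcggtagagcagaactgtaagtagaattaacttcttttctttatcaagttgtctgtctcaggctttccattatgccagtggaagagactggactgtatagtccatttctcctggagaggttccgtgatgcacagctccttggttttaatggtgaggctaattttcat
Tlr2, chr3:83841559-83841858, minus strand: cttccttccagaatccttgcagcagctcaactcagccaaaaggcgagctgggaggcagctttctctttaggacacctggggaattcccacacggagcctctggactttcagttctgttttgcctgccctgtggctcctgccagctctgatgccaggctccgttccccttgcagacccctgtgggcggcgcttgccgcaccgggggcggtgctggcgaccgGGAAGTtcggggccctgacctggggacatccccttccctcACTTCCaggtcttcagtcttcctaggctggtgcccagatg
Tlr6, upstream start, chr5:64959999-64960298, minus strand: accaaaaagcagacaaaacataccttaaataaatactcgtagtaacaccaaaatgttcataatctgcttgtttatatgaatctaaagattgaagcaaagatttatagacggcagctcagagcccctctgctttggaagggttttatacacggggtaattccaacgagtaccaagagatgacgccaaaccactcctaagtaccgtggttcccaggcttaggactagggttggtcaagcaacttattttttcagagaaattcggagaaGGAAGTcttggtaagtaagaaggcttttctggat
Tlr6, downstream start, chr5:64959117-64959416, minus strand: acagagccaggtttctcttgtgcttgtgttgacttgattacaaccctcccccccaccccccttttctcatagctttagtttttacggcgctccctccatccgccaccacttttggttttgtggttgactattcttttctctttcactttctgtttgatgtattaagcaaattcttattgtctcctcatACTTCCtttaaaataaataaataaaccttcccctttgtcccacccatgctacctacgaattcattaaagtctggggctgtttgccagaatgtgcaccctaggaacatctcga
Tlr9, chr9:106222348-106222647, plus strand: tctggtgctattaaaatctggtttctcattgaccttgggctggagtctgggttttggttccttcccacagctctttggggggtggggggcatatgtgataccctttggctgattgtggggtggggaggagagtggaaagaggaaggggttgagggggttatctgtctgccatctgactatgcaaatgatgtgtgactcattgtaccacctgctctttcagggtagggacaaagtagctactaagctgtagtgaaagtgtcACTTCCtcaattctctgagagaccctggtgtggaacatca

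The only ACGTG among these windows lay before the downstream start of Tlr1, as the palindrome CACGTG, which reads as ACGTG on both strands, and no window held GCGTG. Of 32851 mouse promoter windows of the same length, 19.6% held ACGTG and 32.4% GCGTG. The ETS core GGAAGT was found in the Tlr2 window, at the upstream start of Tlr1, at both starts of Tlr6 and in the Tlr9 window, against 23.8% of all windows. A kB site, the element of NFκB, was matched 3 times in the Tlr2 window, where matches overlap (8.46% of all windows). Of the windows of members that did not pass in BMDMs, that of Myd88 also held GGAAGT and that of Tlr3 a kB match, so neither motif was found only in the receptors that differed. These matches describe the letters and are no evidence of binding.

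Tlr1 (5:64924679-64933563) and Tlr6 (5:64952031-64960097) lie 18467 bases apart on the minus strand of chromosome 5 and are close relatives. Of the 31-base words of the Tlr1 transcripts, 18.3% also occurred in Tlr6, and 16.4% of those of Tlr6 occurred in Tlr1. The longest run that their longest coding transcripts share without a mismatch had 229 bases, and it is shown because reads from it cannot be assigned to 1 of the 2 genes by sequence.
Tlr1 and Tlr6, shared run: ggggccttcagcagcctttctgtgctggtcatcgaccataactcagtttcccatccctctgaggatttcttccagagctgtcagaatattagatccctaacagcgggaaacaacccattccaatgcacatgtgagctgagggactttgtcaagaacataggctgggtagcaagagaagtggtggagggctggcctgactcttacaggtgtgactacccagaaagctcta
Levels of both genes therefore rest in part on how the quantification divided such reads. Tlr7 (X:167304929-167330558) and Tlr8 (X:167242696-167264329), 40599 bases apart, shared no such word with any other gene, and neither did Tlr2 (3:83836272-83841767), Tlr9 (9:106222598-106226883) or Cd14. Tlr4 (4:66827584-66930284) shared 0.667% of its words. Myd88 (9:119335934-119341411) overlaps Slc22a14 on its own strand and Acaa1a on the opposite one, and it shared 8.93% of its words with Acaa1a. Tlr3 (8:45395665-45411080) is overlapped by the antisense gene Gm45542, shared 6.1% of its words with it, and lies on the chromosome of Egln1 at a distance of 79497506 bases. Whether the libraries kept strand was not given in the sources used here, so these overlapping genes are uncertain to that extent.

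Levels of different genes were compared per kb of the longest coding transcript. In WT BMDMs, Cd14 was highest at 190 CPM per kb, followed by Tlr7 at 140, Tlr8 at 92.1, Tlr2 at 61.9, Myd88 at 58.6, Tlr4 at 40.9, Tlr9 at 33.8, Tlr1 at 16.4, Tlr6 at 12.9 and Tlr3 at 5.75. Of neighbours in this order, only Tlr2 and Myd88 had overlapping libraries. In fibroblasts in WT medium the order was another one, with Myd88 first at 14.8 CPM per kb, then Tlr4 at 10.2 and Tlr2 at 7.06, whereas Cd14 was at 2.53, Tlr3 at 1.99, Tlr6 at 1.11 and Tlr1 at 1.00. Of the 4 endosomal receptors, all but Tlr3 came last there, Tlr7 at 0.0763, Tlr9 at 0.0150 and Tlr8 at 0.00352 CPM per kb. Libraries overlapped between Cd14 and Tlr3, between Tlr6 and Tlr1 and between Tlr9 and Tlr8.

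**Figure D1:**
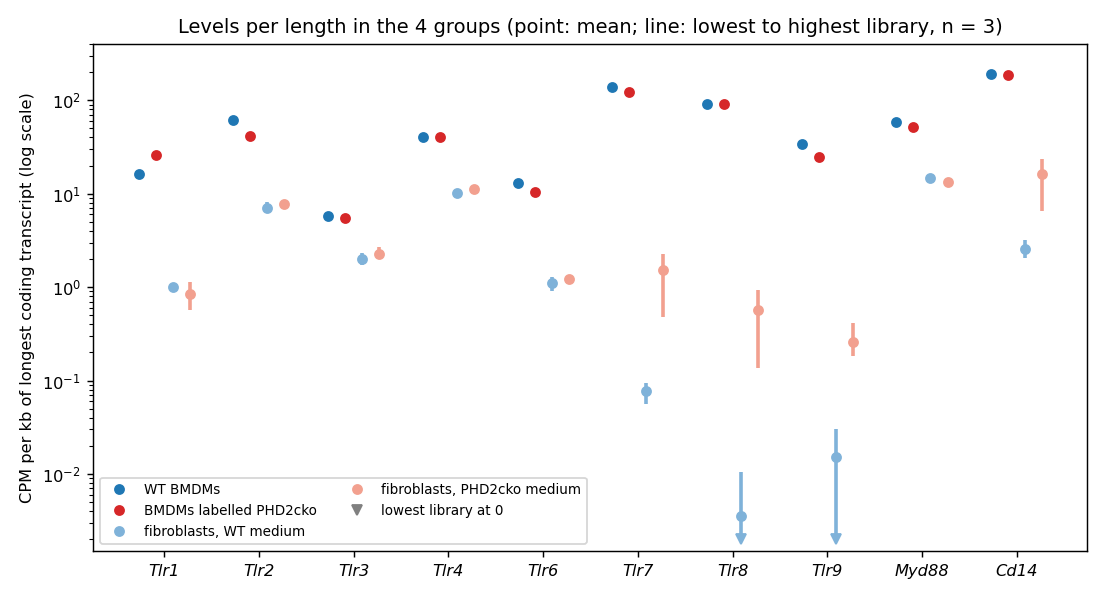
Level of each member per kb of its longest coding transcript in the 4 groups, on a log axis, with the mean of 3 libraries as a point and the lowest to highest library as a line (triangles mark a lowest library at 0). Tlr7, Tlr8 and Tlr9 span the widest range, from 140, 92.1 and 33.8 CPM per kb in WT BMDMs to 0.0763, 0.00352 and 0.0150 in fibroblasts in WT medium.

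All 10 members were higher in WT BMDMs than in fibroblasts in WT medium, in a comparison in which 85.3% of genes passed the threshold (adjusted p under 0.05) and 40.4% were higher and 44.9% lower in BMDMs. The members' median log2 difference was 3.77 beside -0.08 over all genes tested. Without TMM, on library totals, the median over all genes was -0.35, and all 10 stayed past the threshold. The smallest differences were those of Tlr3 (log2 1.53), Myd88 (1.98) and Tlr4 (2.00). Tlr2 was 8.77-fold, Tlr6 11.5-fold, Tlr1 16.2-fold, Cd14 75.3-fold and Tlr7 1848-fold higher in BMDMs. Tlr8 had 0, 1 and 0 counts and Tlr9 1, 0 and 2 counts in the 3 fibroblast libraries, so that at a floor of 3 counts per library Tlr8 was at least 2258-fold and Tlr9 at least 840-fold higher in BMDMs.

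The first question put to these genes was whether macrophages with the PHD2cko label differed from WT macrophages. Among the surface receptors, Tlr1 rose and its relatives Tlr2 and Tlr6 fell, and of the endosomal receptors Tlr9 fell. Thus 4 of 10 members passed the threshold, 1 higher and 3 lower, where 6.73% of all genes tested passed it (3.38% higher and 3.35% lower). The members' median log2 fold change was -0.11, beside 0.00 over all genes.

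Tlr1, the partner of TLR2 for triacylated lipopeptides, was at 50.2, 52.8 and 45.9 CPM in WT replicates 1 to 3 and at 74.4, 77.8 and 83.6 CPM in the libraries labelled PHD2cko. The groups did not overlap. The log2 fold change was 0.66 (SE 0.0917, adjusted p = 6.8e-04), or 1.58-fold higher. Tlr2, which takes part in both pairs, was at 194, 189 and 177 CPM in WT and at 124, 124 and 129 CPM with the PHD2cko label. All 3 labelled libraries lay below every WT library, and the log2 fold change was -0.57 (SE 0.0641, adjusted p = 1.4e-04). Tlr6, the partner for diacylated lipopeptides, had 47.4, 47.3 and 47.3 CPM in WT against 38.7, 36.9 and 39.7 CPM. It too was lower without overlap (log2 -0.30, SE 0.0655, adjusted p = 0.0154). Tlr4, the lipopolysaccharide receptor, had 172, 160 and 168 CPM in WT and 168, 159 and 163 CPM with the PHD2cko label, groups that overlapped (log2 -0.03, SE 0.0595, adjusted p = 0.868).

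Tlr9, the receptor for CpG DNA, was at 124, 122 and 106 CPM in WT and at 76.9, 84.5 and 94.3 CPM in the libraries labelled PHD2cko. It was lower in each of these than in any WT library (log2 -0.46, SE 0.103, adjusted p = 0.0164). Tlr7, the most abundant endosomal receptor, was at 562, 537 and 533 CPM in WT and at 460, 450 and 502 CPM with the PHD2cko label. Its libraries did not overlap either, yet the test across the 12 libraries gave a log2 fold change of -0.21 with an SE of 0.202 (adjusted p = 0.671). Tlr8, beside Tlr7 on the X chromosome, had 321, 316 and 311 CPM against 295, 300 and 332 CPM (log2 -0.03, SE 0.145, adjusted p = 0.968). Tlr3 was at 24.0, 28.0 and 24.1 CPM against 23.0, 24.1 and 25.6 CPM (log2 -0.07, SE 0.111, adjusted p = 0.842). For both of these the groups overlapped.

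Cd14, the lipopolysaccharide-binding co-receptor, was at 320, 293 and 322 CPM in WT BMDMs and at 307, 288 and 314 CPM in those labelled PHD2cko, which overlapped (log2 -0.04, SE 0.251, adjusted p = 0.984). Myd88 was at 114, 119 and 112 CPM in WT and at 105, 98.0 and 105 CPM with the PHD2cko label, without overlap (log2 -0.16, SE 0.0537, adjusted p = 0.104). Altogether 6 members had libraries that did not overlap, 1 above and 5 below, against 31.9% of all genes tested.

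**Figure D2:**
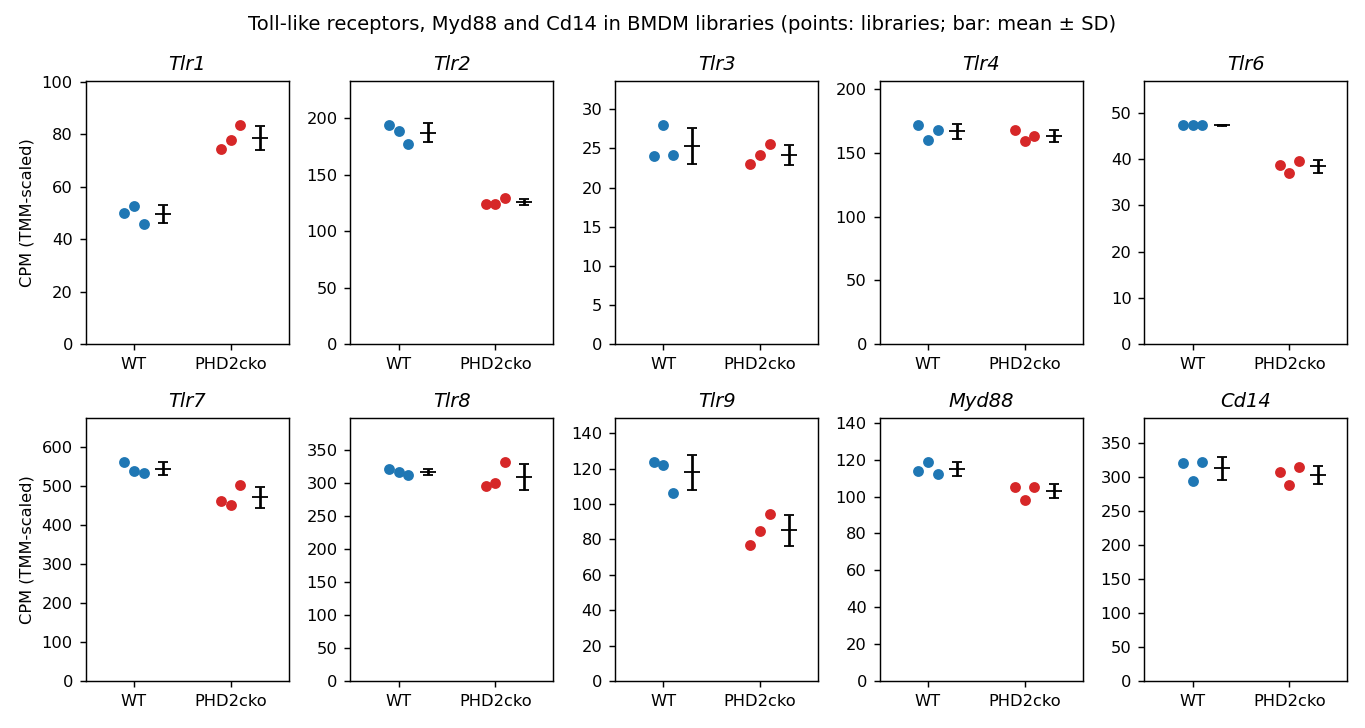
CPM of each member in the 3 WT libraries and the 3 libraries labelled PHD2cko of BMDMs (points), with the mean and SD beside them, on axes that start at 0. Tlr1 lies higher with the PHD2cko label (78.6 against 49.7 CPM), and Tlr2 (126 against 187), Tlr6 (38.5 against 47.3) and Tlr9 (85.2 against 118) lie lower.

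The calls of Tlr1 and Tlr2 were kept in each of 20 alternative analyses. Those of Tlr6 and Tlr9 were lost in some fits with 1 BMDM library fewer, although the log2 fold changes stayed between -0.32 and -0.27 for Tlr6 and between -0.54 and -0.39 for Tlr9 over all 20: without PHD2cko replicates 1 or 2 or WT replicates 1 or 2, Tlr6 had an adjusted p between 0.0615 and 0.0792 and Tlr9 between 0.0811 and 0.112, and without WT replicate 3 Tlr6 had 0.0607. Fitted on the 6 BMDM libraries alone, where 20.6% of genes passed, Tlr7 (adjusted p = 8.9e-04) and Myd88 (0.00606) passed as well, and Myd88 did so when fibroblast replicate 1 in WT medium was left out (0.0195). Markers of other cells moved with the label to this extent: the summed macrophage markers were at 37799 to 39025 CPM in WT and 32452 to 34190 CPM with the PHD2cko label. Most of that gap was the lysozyme gene Lyz2, at 16416 and 11628 CPM (adjusted p = 0.570), and 11 of the 20 markers had a positive and 9 a negative log2 fold change, with 0 of 20 past the threshold by edgeR, DESeq2 or limma-voom (1, 1 and 2 at an unadjusted p under 0.05). These tests take a gene's spread over all 12 libraries, fibroblasts included. Lyz2 fell and the marker Mrc1 rose (556 to 807 CPM) without overlap, so 0 calls do not show that the markers stayed level. The 8 B cell markers summed to 217 to 226 CPM in WT and 174 to 193 CPM with the label, nearly all of it Ighm, the heavy chain gene of IgM, which fell from 218 to 180 CPM (log2 -0.28, adjusted p = 0.0434), with Pax5 and Blk at 0 in both. Of the 4 B cell markers tested 2 passed by edgeR, and the other, the light chain gene Igkc, rose from 0 counts in every WT library to 12, 18 and 17 counts (adjusted p = 0.00572), though not by DESeq2. Cd79b, a subunit of the B cell receptor, was at 2.10 and 3.49 CPM (adjusted p = 0.110). The 8 dendritic cell markers summed to between 270 and 283 CPM in WT and between 257 and 269 CPM with the label. Of these Bst2, which is also an interferon-induced gene, fell from 86.9 to 60.2 CPM (adjusted p = 0.0322, and past the threshold by DESeq2 and limma-voom too), whereas Tcf4 was at 187 and 200 CPM (adjusted p = 0.284). The 8 neutrophil markers summed to at most 0.849 CPM. Their part in the members' differences was not tested.

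**Figure D3:**
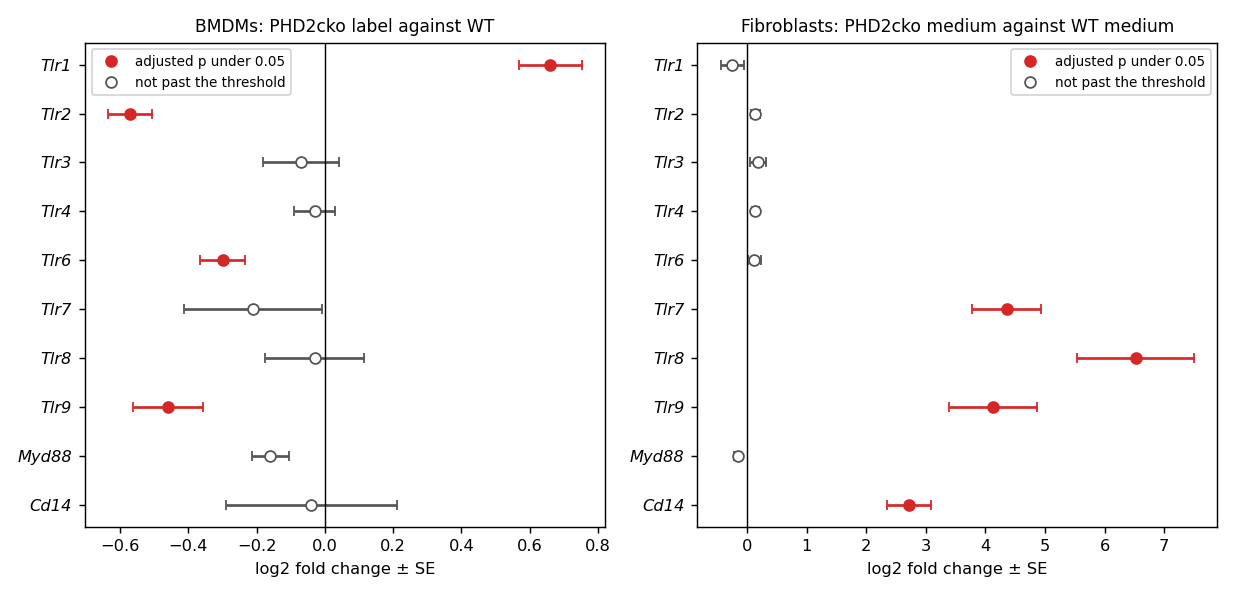
Log2 fold change with its standard error for the 10 members, in BMDMs (left, PHD2cko label against WT) and in fibroblasts (right, PHD2cko medium against WT medium, on a wider axis), with filled symbols for an adjusted p under 0.05. On the left Tlr1 is at 0.66 and Tlr2, Tlr9 and Tlr6 are at -0.57, -0.46 and -0.30; on the right Tlr8, Tlr7, Tlr9 and Cd14 are at 6.52, 4.36, 4.13 and 2.71.

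The rest of the pathway in BMDMs was read from 11 lists of 91 further genes, 84 of which were tested. Of these, 2 were higher and 10 lower past the threshold with the PHD2cko label, where 3.38% of all genes tested were higher and 3.35% lower, and their median log2 fold change was -0.08. Among the co-receptors, Cd36, a scavenger receptor that works with TLR2 and TLR6, rose from 154 ± 12.1 to 399 ± 18.9 CPM (log2 1.37, adjusted p = 0.00203), the opposite direction to both of those receptors. Ly96, which encodes the MD-2 subunit that binds lipopolysaccharide with TLR4, was at 14.3 and 16.2 CPM (adjusted p = 0.348). Among 9 chaperones, trafficking factors and proteases, the receptor chaperones Cnpy3 (log2 -0.23) and Hsp90b1 (-0.20) fell and the lysosomal protease gene Ctsl (0.32) rose. Unc93b1, which carries the endosomal receptors out of the endoplasmic reticulum, was at 1252 CPM in WT and 1119 CPM with the label (adjusted p = 0.815).

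Of the 5 other TIR adaptors 0 passed the threshold by edgeR, DESeq2 or limma-voom, with 1 at an unadjusted p under 0.05 by each. Tirap, the bridging adaptor of TLR2 and TLR4, had a log2 fold change of 0.05, Ticam2, the bridge from TLR4 to TRIF, of -0.07, and Ticam1, which encodes TRIF, of -0.19 (adjusted p = 0.795, 0.714 and 0.0893). Of 18 kinases and ubiquitin enzymes, Ikbke (-0.34), a kinase of interferon regulatory factors, and the ubiquitin ligase gene Peli1 (-0.24) fell. Irak4, the first kinase that MyD88 recruits, was at 76.2 and 78.2 CPM and Traf6, the ubiquitin ligase next in line, at 63.1 and 57.6 CPM, and neither passed. Of 9 negative regulators, Socs1, an inhibitor of JAK kinases, fell by 0.89 on the log2 scale, from 1.49 to 0.816 CPM with an adjusted p of 0.0496. Socs1 did not pass by limma-voom. Of 7 transcription factors 0 passed by edgeR (2 at an unadjusted p under 0.05) or DESeq2 and 1, Irf7, by limma-voom, and of 3 IL-1 family receptors and 3 other Toll-like receptors 0 passed by any of these tools, also unadjusted.

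Response genes of both arms were then compared. Of 8 tested response genes of the MyD88 arm, 0 passed the threshold by edgeR, DESeq2 or limma-voom (1, 2 and 2 at an unadjusted p under 0.05), and 5 had negative and 3 positive values. Tnf, at 9.08 ± 0.407 and 5.87 ± 0.604 CPM (log2 -0.63, adjusted p = 0.271), and Nfkbiz (log2 -0.22, adjusted p = 0.0890) were lower without overlap. Ccl3 (log2 0.15) and Ccl4 (log2 0.31) were higher without overlap. Of 6 tested response genes of the TRIF and interferon arm, 3 fell and all 6 had a negative log2 fold change, with a median of -1.31. Cxcl10, a chemokine, went from 18.8 ± 2.05 to 6.35 ± 0.715 CPM (log2 -1.56, adjusted p = 3.5e-04), Ifit2 from 129 ± 17.2 to 44.4 ± 4.88 CPM (-1.54, adjusted p = 2.3e-06) and Rsad2, which encodes the antiviral protein viperin, from 66.2 ± 4.71 to 27.3 ± 2.11 CPM (-1.28, adjusted p = 0.00592). Rsad2 did not pass by DESeq2. The 11 cytosolic receptors and adaptors, of pathways other than those of Toll-like receptors, all had a negative value, with a median of -0.34. Of them 2, the nucleic acid sensor Zbp1 (-0.83) and the peptidoglycan sensor Nod1 (-0.34), passed the threshold. The lists were chosen with earlier results of these data known.

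**Figure D4:**
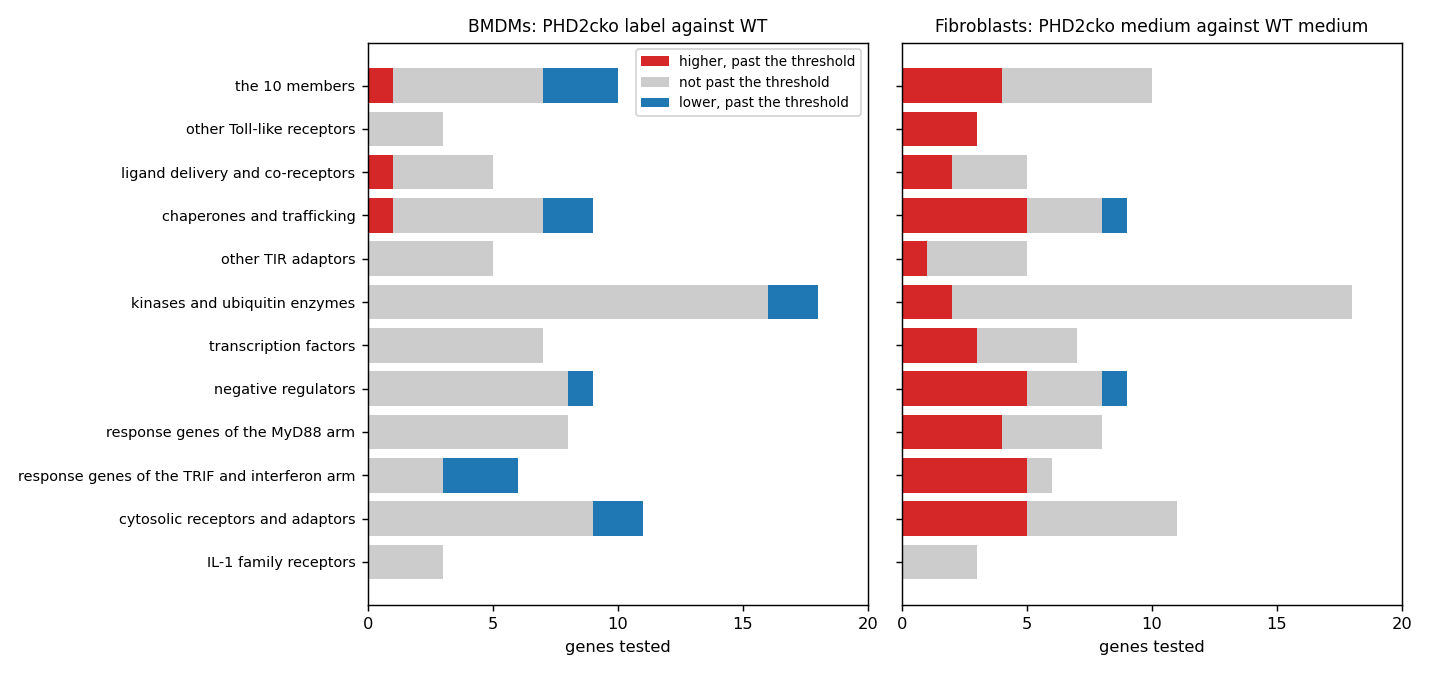
Number of tested genes in the members' list and 11 pathway lists that were higher, lower or not past the threshold (adjusted p under 0.05), in BMDMs (left) and fibroblasts (right). In BMDMs 3 of 6 response genes of the TRIF and interferon arm are lower and 0 of 8 of the MyD88 arm are called; in fibroblasts 35 of the 84 genes outside the members' list are higher and 2 lower.

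The second question was whether fibroblasts kept in PHD2cko medium differed from those in WT medium. There, 4 of 10 members passed the threshold, all higher, Cd14 and the endosomal receptors Tlr7, Tlr8 and Tlr9, where 15.7% of genes tested passed it and 8.93% were higher. Of these 4, Tlr8 stayed below 10 counts in a library of each medium and entered the test through its BMDM counts. Where such genes were left out 15.5% of genes tested passed, and where the 6 fibroblast libraries were fitted alone 6.82% did. In both, 9 members were tested and 3 passed, Cd14, Tlr7 and Tlr9. The other 6 members did not pass. The members' median log2 fold change was 0.16, beside 0.00 over all genes.

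Tlr7 had 6, 6 and 7 counts in WT medium and 172, 32 and 147 counts in replicates 1, 2 and 3 of PHD2cko medium (log2 4.36, SE 0.578, adjusted p = 3.7e-04). Tlr8 had 0, 1 and 0 counts against 62, 8 and 45, which is at least 13.9-fold higher at a floor of 3 counts per library (adjusted p = 7.9e-04). For both genes replicate 2 was the lowest in PHD2cko medium and still above every library in WT medium. Tlr9 had 1, 0 and 2 counts against 28, 11 and 13, at least 6.44-fold higher at that floor (adjusted p = 0.00249). Cd14 was at 5.24, 3.84 and 3.38 CPM in WT medium and at 38.3, 10.7 and 31.3 CPM in PHD2cko medium, 6.52-fold higher (log2 2.71, SE 0.370, adjusted p = 4.5e-04). Replicate 2 was again lowest. Leaving it out moved the log2 fold change of Cd14 to 3.07 and that of Tlr7 to 4.76, whereas without replicate 1 they were 2.36 and 3.98.

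Tlr4, the most abundant of the fibroblasts' receptors per length in WT medium, was at 37.1, 43.2 and 44.3 CPM in WT medium and 47.7, 45.5 and 44.0 CPM in PHD2cko medium, with overlap (log2 0.14, SE 0.0650, adjusted p = 0.179). Myd88 was at 31.1, 29.4 and 26.5 CPM against 26.3, 25.1 and 26.2 CPM, lower in each library (log2 -0.16, SE 0.0616, adjusted p = 0.0970). Its adjusted p was 0.0271 without WT medium replicate 3. Tlr2 was at 24.3, 20.4 and 19.1 CPM against 22.7, 23.5 and 24.1 CPM (log2 0.14, SE 0.0776, adjusted p = 0.259), and it passed when WT medium replicate 1 was left out (log2 0.26, adjusted p = 0.0101). Tlr1 ranged from 2.69 to 3.33 CPM against 1.73 to 3.39 CPM (log2 -0.25, adjusted p = 0.435), Tlr6 from 3.36 to 4.70 against 4.36 to 4.68 CPM (0.12, adjusted p = 0.545) and Tlr3 from 7.58 to 10.2 against 8.95 to 11.8 CPM (0.18, adjusted p = 0.394). These 4 receptors overlapped between the media.

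Markers of macrophages moved with the medium. The 20 markers summed to between 26.5 and 34.6 CPM in WT medium and between 189 and 775 CPM in PHD2cko medium, all 20 were above without overlap, 18 of 20 passed the threshold, and none was at 0 throughout either group. As a percent of their sum in BMDMs of the same label, both taken over total counts, they were at 0.0826, 0.102 and 0.109% in WT medium and at 2.89, 0.699 and 2.65% in PHD2cko medium (exact permutation test of 3 against 3, two-sided p = 0.100, the smallest this design allows). On the same scale Tlr7 was at 2.32, 0.482 and 1.85% of its BMDM level in PHD2cko medium, Tlr8 at 1.27, 0.183 and 0.864% and Tlr9 at 2.08, 0.914 and 0.905%. Cd14 was at 15.6, 4.32 and 12.6%, above the percent of the marker sum in each library, and in WT medium at 2.01, 1.50 and 1.31%. The median over the 20 single markers was 3.75, 0.797 and 3.33% in replicates 1, 2 and 3 of PHD2cko medium. Their highest was Mertk in every fibroblast library, at 13.5, 13.1 and 13.0% there and already at 9.03, 11.8 and 12.5% in WT medium. The next were Lcp1 at 9.52%, Aif1 at 5.93% and Lcp1 at 8.54%. No marker reached the percent of Cd14 in replicate 1, Mertk and Aif1 did in replicate 2, and Mertk alone did in replicate 3. The lowest single marker was at 1.34, 0.278 and 1.20% in replicates 1, 2 and 3. Tlr8 thus lay below all 20 markers in each replicate of PHD2cko medium, and Tlr9 did in replicate 3. The summed B cell markers also moved with the medium, from 3.70 to 5.02 CPM in WT medium to 11.1 to 13.0 CPM in PHD2cko medium, with 1 of 4 tested past the threshold. That was Ighm, at 3.10, 2.75 and 4.23 CPM against 9.86, 12.1 and 10.7 CPM (log2 1.72, adjusted p = 1.7e-05), highest in replicate 2, where the macrophage markers were lowest. Of the dendritic cell and neutrophil markers tested, 8 and 1, none passed by edgeR, DESeq2 or limma-voom (1, 2 and 1 dendritic cell and 0, 0 and 1 neutrophil markers at an unadjusted p under 0.05). The part of these markers in the members' differences was not tested beyond the subtraction that follows.

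The BMDM profile at the marker percent was then taken off each fibroblast library, with remainders below 0 set to 0. Tlr7 and Tlr8 were below the marker percent in every fibroblast library. Their 0 counts in all 6 libraries were therefore fixed by the subtraction and are no test. Tlr9 was left with 0, 3 and 0 counts in PHD2cko medium (adjusted p = 0.328). Cd14 kept 609, 155 and 511 counts against 99, 99 and 59 and stayed past the threshold (log2 2.54, adjusted p = 8.2e-04). In that analysis Tlr1 passed as lower, with 30, 22 and 17 counts against 59, 91 and 50 (log2 -1.28, adjusted p = 0.00125), as did Myd88 (-0.22, adjusted p = 0.0336). The subtraction assumes that any macrophage RNA in these libraries has the profile of the BMDM libraries, which was not tested. Beside Mertk, single markers ranged from 1.34 to 9.52% of their BMDM level in replicate 1 of PHD2cko medium, so a single percent does not describe them all.

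**Figure D5:**
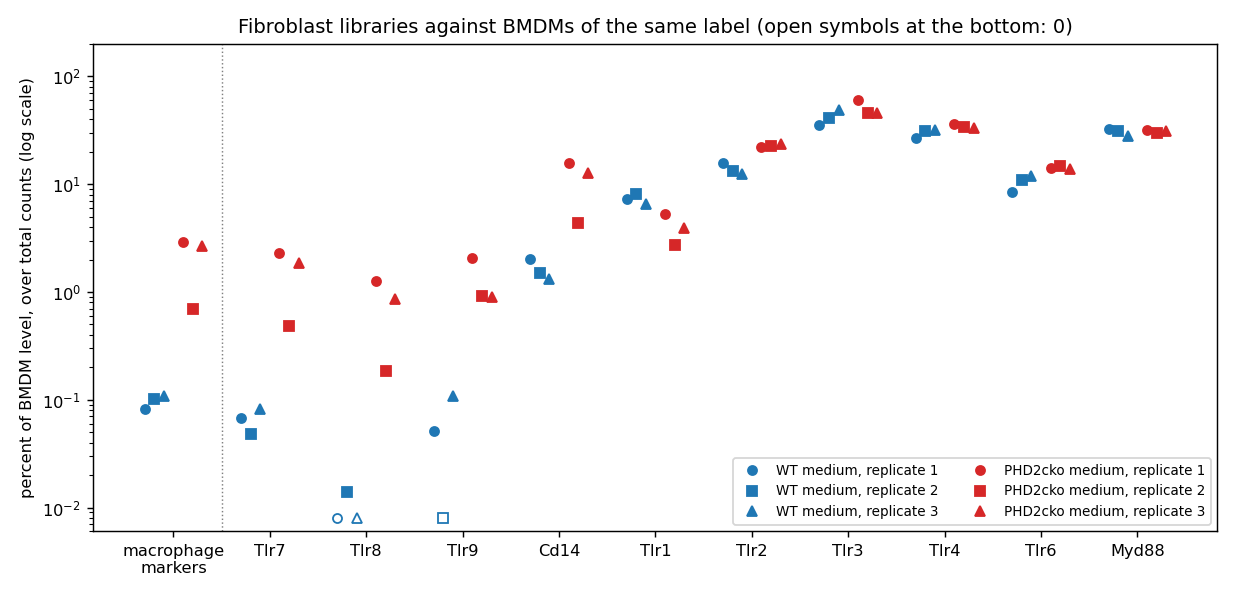
Level of the summed macrophage markers and of each member in the 6 fibroblast libraries, as a percent of the level in BMDMs of the same label (both over total counts), on a log axis, with 1 symbol per library and open symbols at the bottom for 0. In PHD2cko medium the markers stand at 2.89, 0.699 and 2.65%, Tlr7, Tlr8 and Tlr9 lie between 0.183 and 2.32%, and Cd14 lies between 4.32 and 15.6%; Myd88, Tlr3 and Tlr4 lie above 26% in both media.

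The other genes of the pathway were compared in fibroblasts in the same way. Of 84 tested, 35 were higher and 2 lower past the threshold, where 8.93% of all genes tested were higher and 6.75% lower, and their median log2 fold change was 0.21 beside 0.00 over all genes. Of the 35, 29 had at least 10 counts in every library of a medium, and the other 6, Tlr5, Ly86, Tnf, Cxcl2, Ccl4 and Rsad2, had fewer in some library of each medium and were tested through their BMDM counts. Of the 3 other receptors tested, 2 had such counts and were higher: Tlr13, which senses bacterial ribosomal RNA, was at 0.106 CPM in WT medium and 9.27 CPM in PHD2cko medium, and Cd180, a relative without a TIR domain, at 0.165 and 10.9 CPM. Tlr5, the flagellin receptor, had 0 counts in each library in WT medium and 1, 1 and 4 counts in PHD2cko medium, too few to read a difference. Unc93b1 was at 0.152 and 11.5 CPM. By contrast Irak4 (17.7 and 17.8 CPM), Traf6 (28.4 and 29.2 CPM), Tirap (22.9 and 22.8 CPM), Ticam1 (25.7 and 26.5 CPM) and Ly96 (3.57 and 3.29 CPM) did not pass, with adjusted p from 0.671 to 0.964. Ticam2 went from 0.439 to 0.795 CPM (adjusted p = 0.0511). Of 9 negative regulators 5 were higher and 1 lower, among them Nfkbia, which encodes the inhibitor of NFκB, at 15.5 ± 1.13 and 25.7 ± 5.70 CPM (log2 0.73, adjusted p = 0.00169). Of 8 response genes of the MyD88 arm 4 passed as higher, but of these only Ccl3 had at least 10 counts in every library of a medium (0, 1 and 0 against 62, 20 and 73). Cxcl2 had 0 counts throughout WT medium against 5, 1 and 4. Of 6 response genes of the TRIF and interferon arm 5 passed as higher, Rsad2 among them, with Cxcl10 at 0.192 and 1.41 CPM. The macrophage markers given above rose in the same libraries, and their part in these counts was not tested.

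The label effects in the cell types were also set against each other in the same model. The label stands for the genotype of the cells in BMDMs and for the source of the medium in fibroblasts, so these effects are unlike in kind. For 7 of 10 members the effect differed between fibroblasts and BMDMs, where 12.3% of genes did. The effect on Tlr1 was lower in fibroblasts by 0.91 on the log2 scale (SE 0.214, adjusted p = 0.0146) and that on Tlr2 higher by 0.71 (SE 0.101, adjusted p = 6.4e-04). Without WT medium replicate 2 the call of Tlr1 was lost (log2 -0.82, adjusted p = 0.0579). Its difference was -1.94 with the macrophage share subtracted. For Tlr7, Tlr8, Tlr9 and Cd14 the difference was 4.57, 6.55, 4.59 and 2.75. With the macrophage share subtracted, Tlr7 and Tlr8 had 0 counts left in every fibroblast library, fixed by the subtraction. Their differences of 0.21 and 0.03 there are no test. The call of Tlr9 (3.62, adjusted p = 0.310) was lost and that of Cd14 was kept. The difference for Tlr6 was 0.42, with an adjusted p of 0.0478, and its call was lost in 15 of 20 alternatives. For Myd88 the difference was 0.00 (SE 0.0802, adjusted p = 1.00). Both comparisons entered the fit with their own controls.

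Over the 12 libraries, the genes with the most similar level to each member (Pearson's r of log2(CPM + 1), 12847 genes compared) were Cdk18 for Tlr1, Cept1 for Tlr2, Trim34a for Tlr3, Mamld1 for Tlr4, Tceb3 for Tlr6, Clec4d for Tlr7, St8sia4 for Tlr8, Cyth1 for Tlr9, Mxd1 for Myd88 and Cd300ld for Cd14, with r from 0.9938 to 0.9999. The points fall into 2 cell types, whose difference sets most of these values, so they are given as a description.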

How the data were processed

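The authors deposited estimated counts per gene, from single reads quantified with Kallisto against GRCm38 (mouse) and added up per gene, without normalization. The values are whole numbers, and the Kallisto version and the library kit are not given in the sources used here. The table holds 32544 genes in 12 libraries, 3 per group, and groups and replicate numbers follow the labels.

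Genes were kept by filterByExpr (14285 kept, 18259 left out), scaled by TMM, and fitted over all 12 libraries with edgeR 4.0.16 (glmQLFit, glmQLFTest) in R 4.3.3. Tests were two-sided. P-values were adjusted by the Benjamini-Hochberg method across the genes kept, and the threshold was 0.05. Every adjusted p in the text comes from this test unless another is named. The SE of a log2 fold change is its size over the square root of F. A fold against a group with at most 3 counts per library is a lower bound at that floor, which covers counting error only. Alternatives were DESeq2 1.42.0 (Wald test, and its size factors), library totals without TMM, limma 3.58.1 with voom, which is the method of the study, other count filters, fits on 6 libraries, a replicate block, leaving out single libraries, and subtraction of the macrophage share. Positions and shared 31-base words come from GENCODE M21 and promoter windows from RefSeq (GRCm38.p6). The kB site was searched by its consensus on both strands. The fit was tested on simulated data with known changes.

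The 10 members and the pathway and marker lists were chosen with earlier results of these data known. Beyond the members, the text names Tirap, Ticam1, Ticam2, Ly96, Unc93b1, Irak4 and Traf6 in each label comparison and, per list, genes among the up to 4 largest past the threshold. The markers Lyz2, Mrc1, Ighm, Igkc, Cd79b, Bst2 and Tcf4 and the receptors Il1r1, Il1rap, Il18rap and Il18r1 were named after their values were seen. So were the response genes Tnf, Nfkbiz, Ccl3 and Ccl4 in BMDMs. Levels and their sums are TMM-scaled CPM, and percents of the BMDM level are over total counts. A further allele that both BMDM groups share and 1 marker gene are not reported here.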

Additional observations from a re-analysis of the deposited data

Results flagged for a closer look

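For 7 members the effect of the PHD2cko label, a genotype in BMDMs and a medium in fibroblasts, differed between them by a test of the difference itself. It is given here as the fibroblast effect minus the BMDM effect on the log2 scale. It was -0.91 for Tlr1 (0.66 in BMDMs, -0.25 in fibroblasts), 0.71 for Tlr2 (-0.57 and 0.14) and 0.42 for Tlr6 (-0.30 and 0.12). It was 4.57 for Tlr7 (-0.21 and 4.36), 6.55 for Tlr8 (-0.03 and 6.52), 4.59 for Tlr9 (-0.46 and 4.13) and 2.75 for Cd14 (-0.04 and 2.71), in fibroblast libraries in which macrophage markers moved with the medium. The fitted values of Tlr8 and Tlr9 rest on fibroblast libraries with at most 2 counts in WT medium and depend on the prior count. With the macrophage share subtracted, the difference no longer passed the threshold for Tlr6 and Tlr9. Tlr7 and Tlr8 were left with 0 counts in each fibroblast library by that subtraction, so it cannot test their difference.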

How the results depend on the processing

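Of 808 recomputed values, 768 kept their direction and their side of the threshold, 31 lost a call, 7 gained one and 2 changed sign. Leaving out single libraries, the members called in BMDMs ranged from 2 to 5 and all genes called from 527 to 1889, and in fibroblasts from 4 to 5 and from 1260 to 2757. The members whose effect differed between cell types ranged from 5 to 7 (8.77 to 16.0% of all genes tested), and all 10 differed between cell types throughout (82.3 to 85.9%). Fitted on the 6 libraries of a comparison alone, 2534 genes were called in BMDMs and 912 in fibroblasts. The main fit shares its estimate of each gene's spread over all 12 libraries, and the part of that in these counts was not tested. A member not called in the main fit is therefore not shown to be unchanged. With the macrophage share subtracted, 3 members differed between the label effects (Tlr1, Tlr2 and Cd14), where 9.70% of all genes tested did. Tlr7 and Tlr8, left without fibroblast counts by the subtraction, could not be tested there. The fibroblast value of Tlr6 was then -0.05 (adjusted p = 0.834). The BMDM value of Tlr3 was 0.01 without WT replicate 2 (adjusted p = 1.00), where it ran from -0.11 to 0.01 over all alternatives. With the replicate number as a block, 4 members were called in BMDMs, 4 in fibroblasts, 10 between cell types (84.9% of all genes tested) and 6 for the difference of effects (10.8%). It called 815 and 1953 genes in BMDMs and fibroblasts, and Tlr6 alone among the members lost a call, that of the difference. Libraries with the same number did not deviate together (correlations of deviations from -0.125 to 0.0646), so the numbers are not treated as pairs. Tlr8 could not be tested in fibroblasts with at least 10 counts in every library of a group or with 6 libraries alone, since too few of its counts remained. Leaving out a WT medium library moved the fitted fold of Tlr8 in fibroblasts to between 6.16 and 8.15 on the log2 scale and that of Tlr9 to between 3.43 and 5.03. Macrophage markers were higher in PHD2cko medium by 1.98 percentage points of the BMDM level, by 1.57 to 2.67 with a library left out, by 2.57 as the median over markers and by 1.61 with TMM. Depth limits Tlr7, Tlr8 and Tlr9 in WT medium, at 0 to 7 counts.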

Other observations

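The order of the members' levels was also read within each BMDM label. Per kb of transcript, Tlr1 moved from the eighth to the seventh place of the 10 members, at 26.0 CPM per kb with the PHD2cko label, where its libraries overlapped those of Tlr9 at 24.5, and Myd88 at 52.3 stood above Tlr2 at 41.8, whereas in WT BMDMs Tlr2 and Myd88 overlapped at 61.9 and 58.6. Of the 3 tested IL-1 family receptors that share MyD88 with this family, 2 were lower in WT BMDMs than in fibroblasts in WT medium, a comparison in which 44.9% of all genes tested were lower. Il1r1, which encodes the interleukin-1 receptor, was at 107 ± 3.81 CPM in fibroblasts in WT medium and at 1.12 ± 0.257 CPM in WT BMDMs (log2 -6.58, adjusted p = 6.8e-15), and its accessory chain Il1rap at 62.1 ± 4.88 and 15.1 ± 1.79 CPM (log2 -2.04, adjusted p = 2.5e-11), the opposite direction to the 10 members. Il18rap, the accessory chain of the interleukin-18 receptor, was at 12.1 and 14.1 CPM (log2 0.21, adjusted p = 0.0801), and Il18r1 was not tested, since its counts were too low.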
